A study of Mus musculus with 12 samples.

Results

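The 9 genes described here encode enzymes of the late, sterol-forming steps of cholesterol synthesis: Fdft1, Sqle, Lss, Cyp51, Msmo1, Nsdhl, Hsd17b7, Sc5d and Dhcr7. Their members in these data are the 46 peaks of open chromatin, of 52530 in the deposited table, whose annotated nearest gene is one of the 9. Sc5d has 16 of the 46 peaks, Fdft1 9, Msmo1 6, Cyp51 and Dhcr7 4 each, Sqle 3, Lss 2, and Nsdhl and Hsd17b7 1 each. Peaks entered by gene name alone, while the 9 genes were chosen with earlier results of these data known. The assay was ATAC-seq, which reads out where DNA is open to a tagging transposase. It was run on nuclei of hepatocytes, pulled on beads from liver of female HEP-INTACT mice by a tag on the nuclei of that cell type. The labels do not say which promoter drives the tag. Fasted mice had no food for 16 h, beginning at ZT12, when mice become active, while controls ate ad libitum and were killed at the same hour. Each of 6 mice, 3 fed and 3 fasted, gave 1 library from fresh and 1 from frozen liver, so there were 4 groups of 3 libraries. No genetic or drug treatment beyond the HEP-INTACT tag is named in the labels, all 4 groups carry that tag, and ages are not given.

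Cholesterol synthesis runs from acetyl-CoA through mevalonate to farnesyl diphosphate, and from there the enzymes of this set commit carbon to sterols. Fdft1 joins farnesyl diphosphate into squalene, Sqle adds an epoxide with molecular oxygen, and Lss folds the product into lanosterol, the first sterol. Cyp51, Msmo1, Nsdhl and Hsd17b7 then strip methyl groups from the ring system, and Sc5d and Dhcr7 set its final double bonds. In liver most of these genes are known targets of SREBP2, a membrane-bound factor released to the nucleus when sterols are low, which acts together with the CCAAT-binding factor NF-Y and the GC-box factor Sp1.

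Promoter sequences from RefSeq (GRCm38.p6, the mm10 build of the peaks) were matched by symbol for 7 of the 9 genes, and 7 windows of 250 bases before an annotated start overlapped a peak of the gene. The CCAAT box (CCAAT, or ATTGG on the other strand) occurred in all 7 of these windows and at least 2 times in 4 of them. Of all 32851 promoter windows of that length 33.9% held at least 1 and 10.1% held at least 2. Among the 10548 windows that overlapped any peak within 1 kb of a start the shares were 37.6% and 15.4%. The GC box (GGGCGG or CCGCCC) also occurred in all 7, against 64.8% of windows over a peak near a start. The SREBP recognition sequence searched, TCACNCCAC on either strand, was in 0 of the 7 and in 0.967% of the windows over a peak near a start, and these letters say nothing about other forms of the site. Matches of different motifs may overlap each other. The 5 windows below are shown because they lie under peaks described below, 4 start peaks with fasting differences from the most negative, Nsdhl, to the uncalled Lss, and the Dhcr7 peak over an alternative start. Each is written 5′ to 3′ on the gene's own strand, ending 1 base before the start, with CCAAT boxes in capitals.
Msmo1 (chr8:64733579-64733828, minus strand): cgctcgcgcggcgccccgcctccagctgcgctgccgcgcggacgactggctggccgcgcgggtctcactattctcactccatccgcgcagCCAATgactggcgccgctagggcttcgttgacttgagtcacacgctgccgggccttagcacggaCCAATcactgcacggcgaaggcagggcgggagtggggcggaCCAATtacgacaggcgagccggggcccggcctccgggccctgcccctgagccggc
Nsdhl (chrX:72918271-72918520, plus strand): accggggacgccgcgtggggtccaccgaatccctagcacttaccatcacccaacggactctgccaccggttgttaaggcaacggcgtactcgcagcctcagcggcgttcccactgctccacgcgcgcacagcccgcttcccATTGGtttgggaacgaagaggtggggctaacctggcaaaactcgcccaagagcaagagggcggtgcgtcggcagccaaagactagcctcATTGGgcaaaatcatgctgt
Cyp51 (chr5:4104698-4104947, minus strand): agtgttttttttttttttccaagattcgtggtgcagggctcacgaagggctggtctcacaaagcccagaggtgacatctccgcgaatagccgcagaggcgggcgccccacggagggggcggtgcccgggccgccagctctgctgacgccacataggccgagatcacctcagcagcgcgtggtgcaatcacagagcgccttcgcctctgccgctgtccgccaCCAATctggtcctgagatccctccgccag
Dhcr7 (chr7:143829964-143830213, plus strand): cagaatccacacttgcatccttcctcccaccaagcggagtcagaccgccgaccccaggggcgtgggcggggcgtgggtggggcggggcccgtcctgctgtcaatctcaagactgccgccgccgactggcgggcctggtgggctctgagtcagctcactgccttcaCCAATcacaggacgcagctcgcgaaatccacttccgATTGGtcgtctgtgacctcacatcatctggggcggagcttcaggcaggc
Lss (chr10:76531355-76531604, plus strand): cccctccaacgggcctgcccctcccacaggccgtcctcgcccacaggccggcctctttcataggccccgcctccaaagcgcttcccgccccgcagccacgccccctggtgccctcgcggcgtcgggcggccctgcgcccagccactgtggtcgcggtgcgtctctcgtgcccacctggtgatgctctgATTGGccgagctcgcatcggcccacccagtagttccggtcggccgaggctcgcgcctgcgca
Msmo1 has 3 CCAAT boxes, 160, 96 and 55 bases before the start, and Nsdhl has 2, at 109 and 20 bases. The Dhcr7 window has 2, at 85 and 49 bases, Cyp51 has 1 at 29 bases and Lss has 1 at 62 bases. Of the genes not printed, Hsd17b7 had 3 boxes, at 165, 73 and 12 bases, and Sc5d had 1, at 24 bases.

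All values are reads per 200 bp peak, divided by the authors by 1 size factor per library, and are called normalized reads here. The libraries held 3692152 to 14506057 reads in peaks, with a median of 51 to 217 reads per peak, and the frozen fasted library C was the shallowest. Of the 8 hepatocyte markers 7 had a peak within 1 kb of the start, with a summed level of 1592 to 2185 normalized reads in fed and 1720 to 2701 in fasted libraries. None of 6 endothelial, 6 macrophage or 5 lymphocyte markers had one, and of 6 stellate and 5 bile duct markers Reln and Sox9 did. At any distance, all 8 hepatocyte, 4 endothelial, 2 macrophage, 1 lymphocyte, 2 stellate and 3 bile duct markers had a peak. Reln summed to 51.2 to 134 normalized reads in fed and 77.6 to 125 in fasted libraries, Sox9 to 65.1 to 137 and 86.2 to 119, and their part in the results was not tested. Differences were fitted with limma as log2(normalized reads + 1), fasted minus fed, which understates changes of low peaks, and called at an adjusted p under 0.05 over all 52530 peaks. The main fasting fit averages the fresh and frozen library of a mouse, so that n is 3 against 3 mice.

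Peaks of the sterol synthesis genes were more often lower than higher in fasted mice. In the averaged fit 23 of the 46 peaks were lower and 4 were higher, where 18.1% of all peaks were lower and 16.5% higher. The median log2 difference was -0.28 over the 46 peaks and 0.05 over all peaks. At least 1 peak was called in 8 of the 9 genes, Hsd17b7 being the exception, and 6 peaks fell by more than 1 on the log2 scale while 1 rose by that much. In 12 peaks all 6 fasted libraries lay below all 6 fed libraries, as in 7.79% of all peaks, and in 2 they lay above, as in 5.16%. With 1 of the 6 mice left out 15 to 25 peaks were lower, the 15 being without fed mouse A, and 17 of the 27 calls held in all 6 such fits. Scaling every library to the peaks near starts gave 29 lower and 3 higher, and it moved the median over all peaks from 0.05 to -0.08 and the calls over all peaks from 8678 higher and 9485 lower to 4056 and 12857. Quantile normalization gave 27 lower and 4 higher. edgeR's quasi-likelihood test on whole reads called 6928 peaks of the table higher and 9678 lower, among them 26 of the 46, 25 of which limma also called.

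Decreases were found at the starts and, largely at Sc5d, away from them. Of the 12 peaks within 1 kb of a start 7 were lower and 0 higher, where 4.59% of all such peaks were lower and 19.7% higher. In 11 of the 12 peaks the difference was below 0, as in 22.6% of all peaks near starts, and the medians were -0.22 and 0.12. The 7 became 3 without fed mouse A and 4 without fed mouse B or fasted mouse A. Of the 34 peaks farther out 16 were lower and 4 higher, where the background was 25.4% and 14.8%. Sc5d alone had 14 of these 34 peaks, and 11 of its 16 peaks, near and distal, were lower. The 11 include the peak 0.13 kb upstream of the Sc5d start, and the rest are distal. The other lower distal peaks were at Sqle, Msmo1 and Dhcr7 only, and the 4 higher ones at Fdft1, Lss and Cyp51. A large part of the distal decrease thus lies at Sc5d, and no share without it was set against the background. The median of the distal peaks was -0.43, against -0.05 for all distal peaks, with a span from -2.48 to 1.07. No test of near against distal peaks was made.

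**Figure D1:**
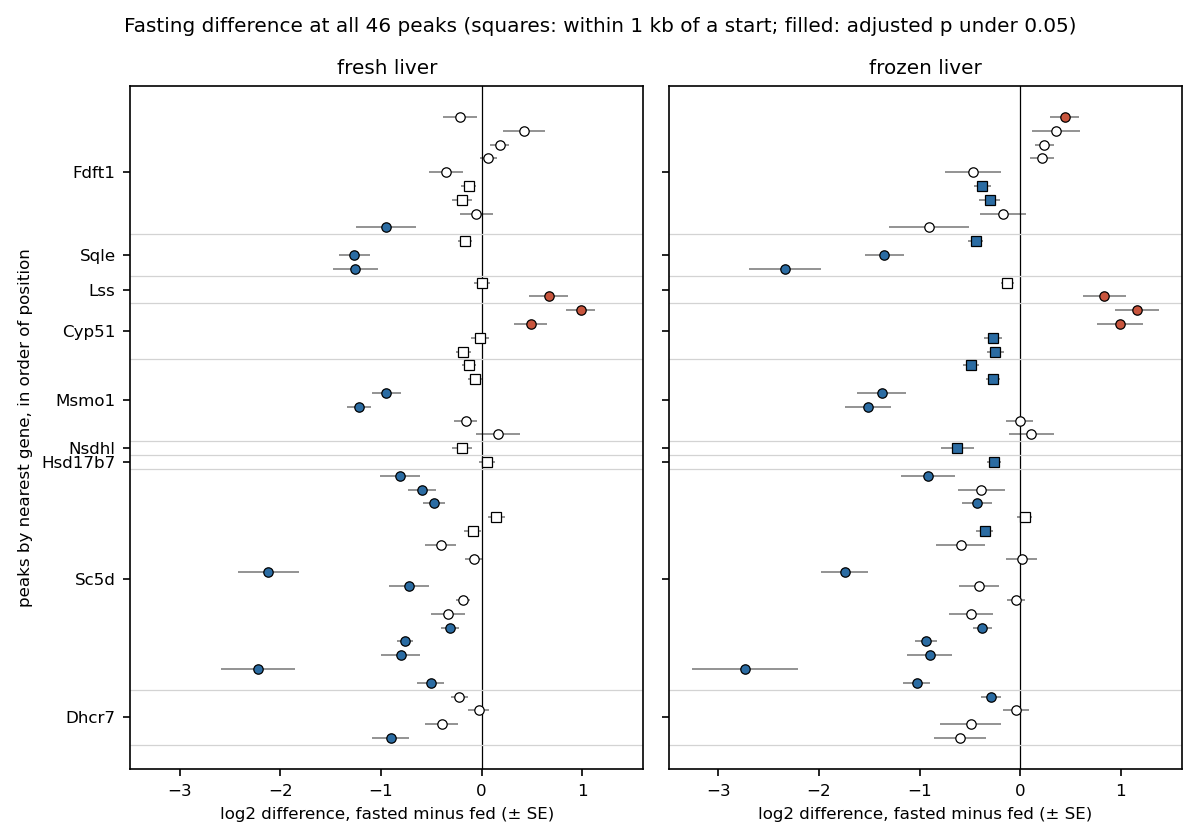
Log2 difference of fasted minus fed liver (± SE, 3 against 3 libraries) at each of the 46 peaks, fresh liver at left and frozen liver at right, with squares for peaks within 1 kb of a start and filled symbols for an adjusted p under 0.05 (blue lower, red higher). In fresh liver 0 of the 12 squares are filled and in frozen liver 10, all below 0, while the largest distal decreases, at Sc5d and Sqle, are filled in both.

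Fdft1, squalene synthase, makes the first step committed to sterols. Its start peak (chr14:63177827-63178027) held 376, 405 and 352 normalized reads in the fresh fed libraries A, B and C and 329, 348 and 357 in the fresh fasted ones. In frozen liver it held 429, 444 and 381 in fed and 305, 324 and 334 in fasted libraries. Fed and fasted libraries overlapped in fresh liver and were apart in frozen liver. The mean over mice was 398 ± 29.5 (SD, n = 3) fed and 333 ± 14.5 fasted, a log2 difference of -0.25 ± 0.07 (SE) with adjusted p = 0.0183, which passed 0.05 no longer without fed mouse A, fed mouse B or fasted mouse A (highest adjusted p = 0.0787). A second peak 0.27 kb upstream differed by -0.25 with adjusted p = 0.0553. The other 7 Fdft1 peaks lie 1.53 to 27.6 kb from the start, 5 of them in introns of Fdft1, 1 in an intron of the neighbour Neil2 and 1 between genes. Of these 1 was higher, in intron 2 of Fdft1 (chr14:63164265-63164465), at 183 ± 6.55 fed and 214 ± 10.7 fasted. Its log2 difference was 0.21 ± 0.07 (adjusted p = 0.0465), and the call was lost in 5 of the 6 fits that left out a mouse.

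Sqle, squalene epoxidase, is a rate-limiting enzyme of the pathway, and all 3 of its peaks were lower. The start peak (chr15:59314856-59315056) held 517, 522 and 477 normalized reads in fresh fed and 478, 429 and 448 in fresh fasted libraries. Frozen liver gave 498, 487 and 465 in fed and 340.4, 348 and 381 in fasted libraries. The highest fresh fasted library lay just above the lowest fresh fed one, while the frozen groups were apart. Averaged over preparations the level went from 494 ± 20.1 to 404 ± 13.8 (log2 difference -0.30 ± 0.06, adjusted p = 0.00327). Changes inside the gene were larger. In intron 1, 2.13 kb from the start (chr15:59317124-59317324), fresh fed libraries held 169, 154 and 159 normalized reads and fresh fasted ones 71.3, 80 and 50.9. Frozen libraries held 114, 132 and 98.1 when fed and 41.0, 52.3 and 40.1 when fasted. No fasted library reached the lowest fed one, and the peak was 2.48-fold lower in fasting (log2 difference -1.31 ± 0.14, adjusted p = 0.000318). The peak in intron 2, 4.94 kb from the start (chr15:59319936-59320136), held 121, 137 and 103 in fresh fed and 47.5, 72.2 and 35.0 in fresh fasted libraries. In frozen liver the values were 149, 126 and 92.9 and 30, 35.7 and 11.1. Again the 6 fasted libraries lay below the 6 fed ones, with a log2 difference of -1.80 ± 0.29 (adjusted p = 0.00172). All 3 Sqle calls held with each mouse left out.

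Lss, lanosterol synthase, closes the sterol rings, and its start peak was not called. This peak (chr10:76531411-76531611) is among the highest of the set, at 529.9 ± 25.9 normalized reads in fed and 504 ± 22.4 in fasted mice. Fresh fed libraries held 449, 502 and 428 and fresh fasted ones 489, 424 and 467, and the groups overlapped. In frozen liver they held 613, 608 and 578 and 562, 538 and 547 and did not overlap. The log2 difference was -0.06 ± 0.06, with a 95% interval of -0.20 to 0.07 and adjusted p = 0.426. The only other Lss peak, in intron 5 at 6.10 kb (chr10:76537608-76537808), moved the other way. It held 37.3, 46.5 and 35.5 normalized reads in fresh fed, 66.5, 54.0 and 70.1 in fresh fasted, 41.7, 47.8 and 34.2 in frozen fed and 83.7, 62.8 and 75.7 in frozen fasted libraries. All 6 fasted libraries were above all 6 fed ones at this low peak, and the log2 difference was 0.75 ± 0.18 (adjusted p = 0.00986).

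Cyp51, lanosterol 14-alpha-demethylase, is the cytochrome P450 of the pathway. Its start peak (chr5:4104713-4104913) held 315, 345 and 298 normalized reads in fresh fed and 282, 288 and 273 in fresh fasted libraries. The frozen values were 380.0, 406 and 419.7 fed and 366, 343 and 307 fasted, and in each preparation the 2 feeding states did not overlap. The log2 difference was -0.21 ± 0.06 (adjusted p = 0.0266), and it passed the threshold no longer without any 1 of the 3 fed mice or without fasted mouse C (highest adjusted p = 0.101). A peak in the 5′ UTR, 0.24 kb into the gene, differed by -0.14 (adjusted p = 0.153). The other 2 peaks, which overlap by 42 bp and share reads, lie 85.2 and 85.0 kb from the Cyp51 start in intron 21 of Akap9, so nearest gene is their only link to Cyp51. They were higher in fasting. The first (chr5:4019408-4019608) went from 39.6 ± 3.34 to 83.4 ± 7.59 normalized reads, all 6 fasted libraries above all 6 fed ones, a log2 difference of 1.07 ± 0.15 (adjusted p = 0.000883).

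Msmo1, the C4-methyl sterol oxidase, had 4 lower and 0 higher peaks of 6. Its start peak (chr8:64733522-64733722) held 523, 478 and 449 normalized reads in fresh fed and 448, 431 and 448 in fresh fasted libraries. In frozen liver fed libraries held 503, 465 and 432 and fasted ones 336, 341 and 316. The 3 fresh fasted libraries lay just below the lowest fresh fed one, and the frozen fasted ones were the lowest of the 12. The averaged log2 difference was -0.31 ± 0.06 (adjusted p = 0.0054). A second start peak, which shares 79 bp and thus reads with it, differed by -0.17 (adjusted p = 0.0376), a call lost in 4 of the 6 fits that left out a mouse. The strongest Msmo1 decreases lay upstream in intron 13 of the neighbouring gene Klhl2. At 13.4 kb (chr8:64746830-64747030) fresh fed libraries held 141, 141 and 161 and fresh fasted ones 63.1, 63.9 and 61.0 normalized reads. The frozen values there were 79.8, 74.9 and 68.3 fed and 29.1, 27.9 and 20 fasted. Fasting separated the libraries completely, with a log2 difference of -1.37 ± 0.14 (adjusted p = 0.000222), and freezing lowered the same peak by a log2 difference of -1.13. The peak beside it at 13.0 kb differed by -1.16 ± 0.17 (adjusted p = 0.00097).

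Nsdhl, the sterol dehydrogenase that removes the C4 carboxyl group, had 1 peak (chrX:72918487-72918687) on the X chromosome. The peak is annotated to the start of Cetn2, which neighbours Nsdhl there, so its reads cannot be given to either gene. It held 114, 127 and 124 normalized reads in fresh fed and 104, 109 and 105 in fresh fasted libraries, and 151, 115 and 114 in frozen fed and 73.7, 79.3 and 91.2 in frozen fasted ones. Every fasted library lay below every fed one. The decrease, from 124 ± 7.59 to 93.7 ± 4.53, was the largest among the start peaks on the log2 scale, -0.41 ± 0.10 (adjusted p = 0.0111), at the lowest start peak of the 8. Hsd17b7, the ketoreductase of the same C4 demethylation complex, also had 1 peak (chr1:169969180-169969380), annotated to the start of 3110045C21Rik. Its fresh libraries held 455, 458 and 403 fed and 482, 415 and 474 fasted, and its frozen libraries 511, 467 and 502 fed and 407, 431 and 398 fasted. The groups overlapped in fresh and not in frozen liver, and the averaged log2 difference of -0.10 ± 0.05 was not called (adjusted p = 0.16). It was called after quantile normalization (-0.15, adjusted p = 0.024).

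**Figure D2:**
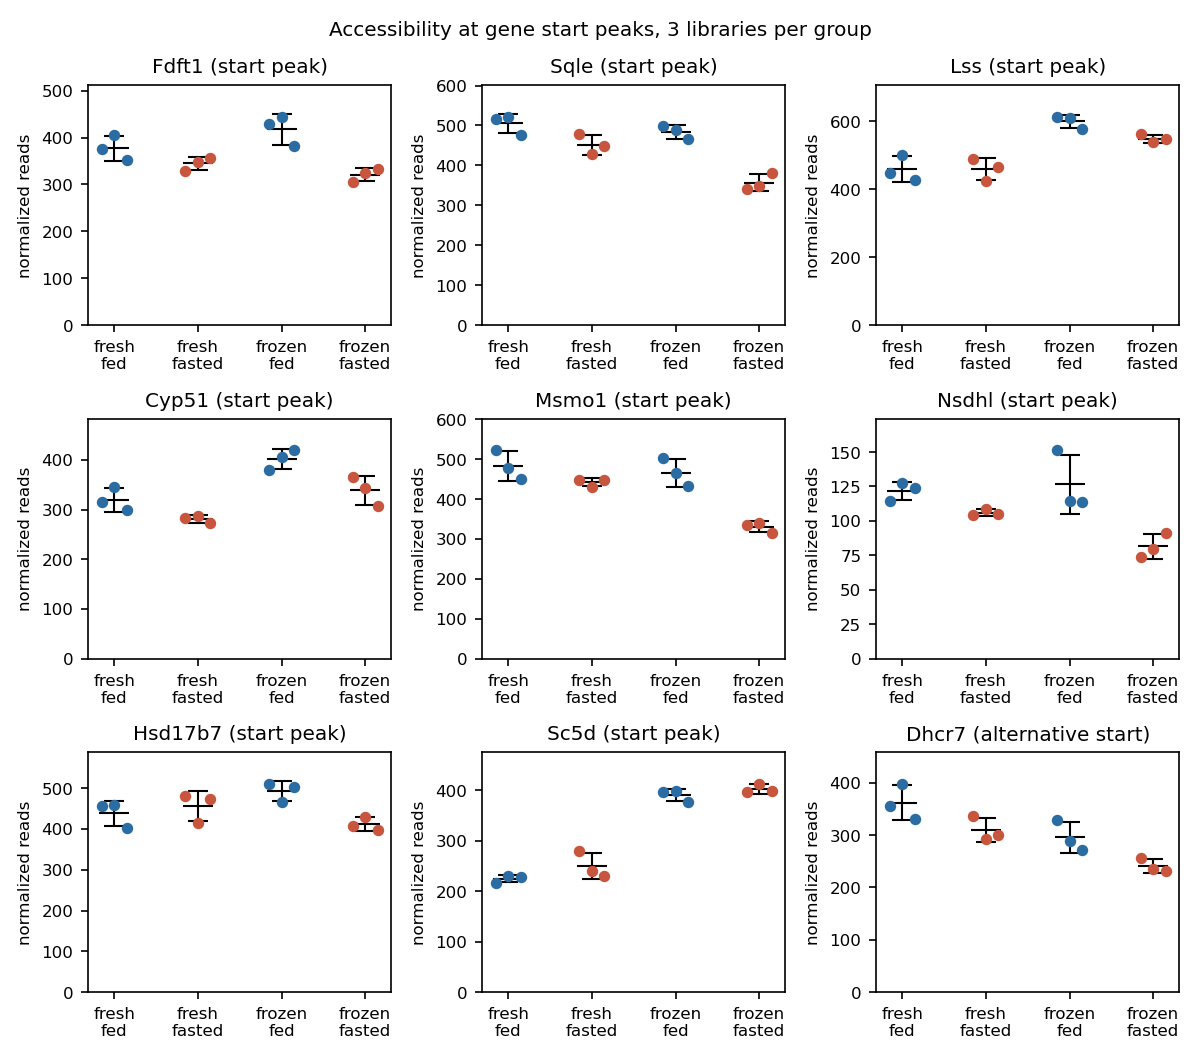
Normalized reads in each library (points) with the mean and SD of the 3 libraries (black) at the 8 start peaks and at the Dhcr7 peak over an alternative start, in fed (blue) and fasted (red) mice, fresh and frozen. Frozen fasted libraries lie below frozen fed ones at all but the Sc5d panel. In fresh liver the groups overlap at Fdft1, Sqle, Lss, Hsd17b7 and Dhcr7, and at Sc5d the fasted libraries lie above the fed ones.

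Sc5d, lathosterol 5-desaturase, had the most peaks, and 11 of its 16 were lower and 0 higher. Its start peak (chr9:42264174-42264374) was not among them. This peak held 217, 229.7 and 229 normalized reads in fresh fed and 279, 240.0 and 231 in fresh fasted libraries, and 397, 399.8 and 377 in frozen fed and 397, 413 and 398 in frozen fasted ones. In fresh liver the fasted libraries lay above the fed libraries, the lowest of them only just, and in frozen liver the feeding states overlapped. The averaged log2 difference of 0.09 ± 0.06 was not called (adjusted p = 0.241). At this start peak every frozen library stood above every fresh library. A peak 0.13 kb upstream that shares 42 bp with it went from 257 ± 3.53 to 216 ± 6.07 (log2 difference -0.22 ± 0.06, adjusted p = 0.0208), a call lost without fed mouse A, fed mouse C or fasted mouse A. The upstream intergenic region held the largest decreases of the whole set. At 15.7 kb upstream (chr9:42279859-42280059), the highest distal Sc5d peak in fed mice, fresh fed libraries held 285, 300.1 and 269 and fresh fasted ones 173, 172 and 158 normalized reads. In frozen liver the peak held 367, 327 and 325 in fed and 174, 202 and 156 in fasted libraries. The lowest fed library was well above the highest fasted one, and the log2 difference of -0.85 ± 0.08 had the lowest adjusted p of the 46 peaks, 0.000176. The peak at 15.5 kb upstream, also called lower (log2 difference -0.34 ± 0.07, adjusted p = 0.00653), shares 38 bp and thus reads with the 15.7 kb peak. At 8.25 kb upstream (chr9:42272447-42272647) the fresh values were 92.3, 91.6 and 86.1 fed and 21.7, 31.7 and 11.3 fasted. The frozen values were 105, 100.3 and 88.5 fed and 21.8, 39.2 and 26.7 fasted, a 3.82-fold decrease overall (log2 difference -1.93 ± 0.24, adjusted p = 0.000495). At 29.4 kb upstream (chr9:42293641-42293841) the level fell from 63.8 ± 12.4 to 12.6 ± 7.58, the largest log2 difference of the set at -2.48 ± 0.45 (adjusted p = 0.00309), with all 6 fasted libraries below the fed ones. In that peak the lowest value, 2.23, came from the shallowest library, frozen fasted C, and without fasted mouse C the difference was -1.89. The farthest peak, 65.7 kb upstream in the 3′ UTR of Tecta, fell from 161 ± 10.3 to 95.7 ± 10.1 (log2 difference -0.77 ± 0.10, adjusted p = 0.000721). Among the peaks of the region that were not called, those at 7.25 and 10.9 kb upstream differed by -0.03 ± 0.10 and -0.11 ± 0.06, with 95% intervals of -0.26 to 0.19 and -0.25 to 0.03.

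**Figure D3:**
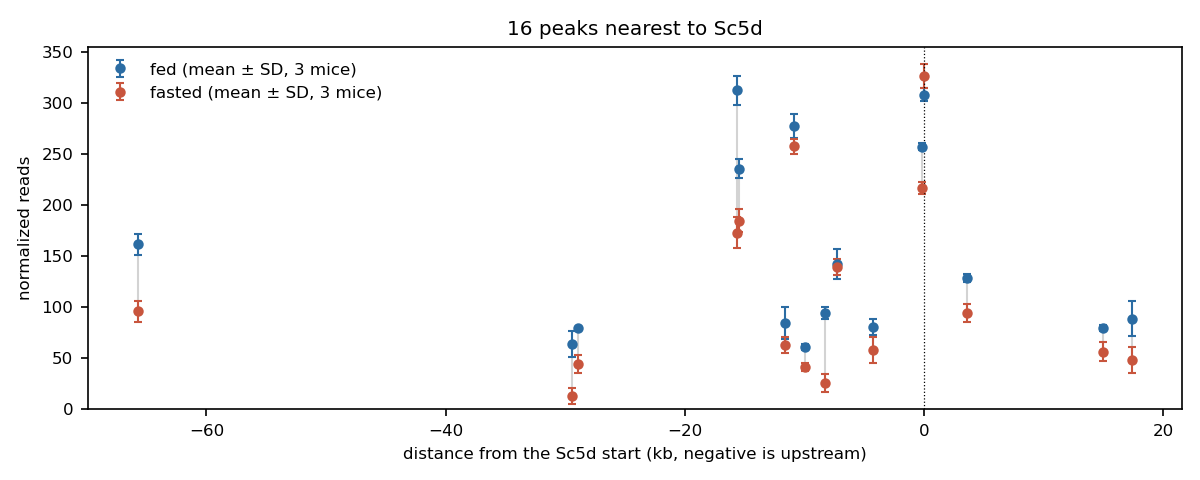
Normalized reads (mean ± SD of 3 mice, fresh and frozen averaged) at the 16 peaks nearest to Sc5d against their distance from its start in kb, fed in blue and fasted in red, with grey lines joining the same peak. The start peak was at 308 fed and 326 fasted, and the peak 15.7 kb upstream at 312 fed and 173 fasted.

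Dhcr7, which reduces 7-dehydrocholesterol to cholesterol, had no peak within 1 kb of the start used by the deposited annotation. One of its 4 peaks (chr7:143830069-143830269), 7.0 kb into the gene in its 5′ UTR, covers another RefSeq start of Dhcr7 at position 143830214, the one whose promoter is printed above. It held 356, 398 and 332 normalized reads in fresh fed, 336, 294 and 299 in fresh fasted, 329, 288 and 271 in frozen fed and 257, 235 and 231 in frozen fasted libraries. The 2 states overlapped slightly in fresh liver and were apart in frozen liver, with a log2 difference of -0.26 ± 0.07 (adjusted p = 0.0249), a call lost without fed mouse A, fed mouse B or fasted mouse B. The peak at the transcript end, 26.0 kb from the annotated start (chr7:143849048-143849248), fell from 62.9 ± 3.56 to 36.8 ± 8.62 (log2 difference -0.75 ± 0.19, adjusted p = 0.0147), a call lost without fed mouse A or fasted mouse A. The intron 2 peak between them differed by -0.04 ± 0.10, with a 95% interval of -0.26 to 0.19.

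**Figure D4:**
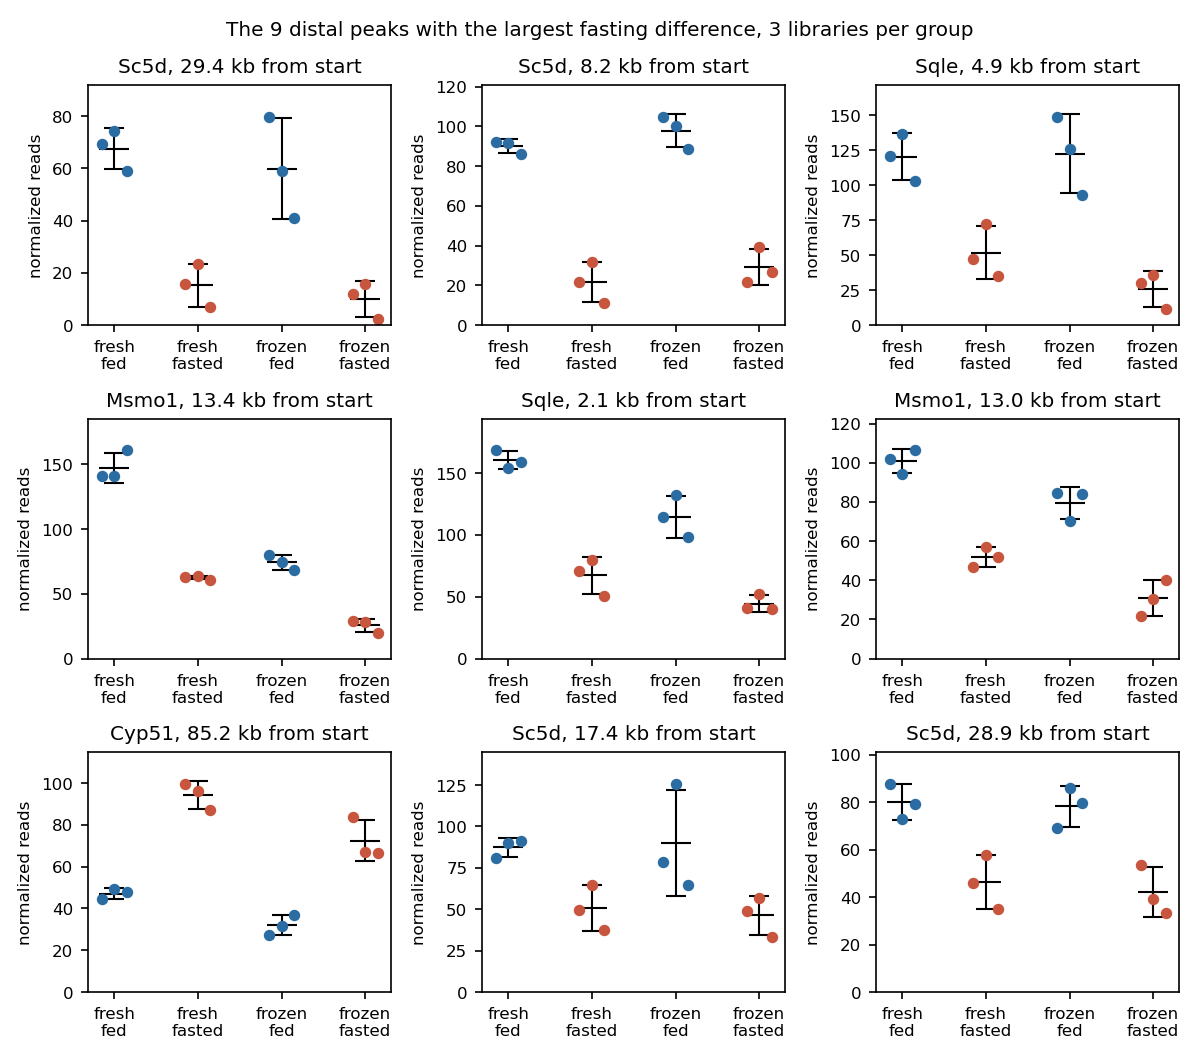
Normalized reads in each library (points) with the mean and SD of 3 libraries (black) at the 9 called peaks beyond 1 kb with the largest absolute log2 difference in fasting, fed in blue and fasted in red. The peak nearest to Cyp51 and inside Akap9 is higher and the others are lower, and at all 9 the fed and fasted libraries do not overlap within either preparation.

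At the starts the log2 fasting difference had a lower value in frozen than in fresh liver at each of the 12 peaks. None of these interactions was called by the fit without a replicate block. At the Sc5d start peak the difference was above 0 in both, at 0.15 in fresh and 0.04 in frozen liver. In frozen liver 10 of the 12 peaks near starts were lower and 0 higher, where 3.70% and 12.8% of all such peaks were. In fresh liver limma called 0 of the 12 lower and 0 higher, where 3.45% and 13.2% were called. At an unadjusted p under 0.05 the peaks of Sqle and Cyp51 nearest to their starts, 2 of the 12, were lower in fresh liver, and edgeR called 0. The fresh count depended on scaling: it was 4 after quantile normalization and 6 when each library was scaled to peaks near starts. The frozen count was 4 without fasted mouse A, 5 without fed mouse A and 6 without fed mouse B. The difference was below 0 at 9 of the 12 peaks in fresh and at 11 in frozen liver. The interaction of feeding state and preparation, frozen minus fresh, was below 0 at all 12, from -0.43 to -0.07, as at 46% of all peaks near starts. An unadjusted p under 0.05 was found at 7 of the 12, against 4.63% of such peaks, but adjusted p was 0.781 to 0.996. Over all peaks the interaction fit called 0.00%, with 5.14% at an unadjusted p under 0.05, and 10 of the 46 peaks were among these. Fitted with the replicate block, which takes the 2 libraries of a mouse together, it called 0.752% of all peaks and 2 of the 46. These were the Msmo1 start peak, at -0.37 (adjusted p = 0.0258), and the Sqle intron 2 peak, at -1.08 (adjusted p = 0.0196). Near starts the fit with the block had an unadjusted p under 0.05 at 8 of the 12 peaks, against 10.7% of all such peaks. It called 1 of the 12, and 76 of all peaks near starts. Without the block and after quantile normalization the Sqle value was -0.45. Overlapping peaks and libraries of the same mice are shared among these 12 values, so they are not independent.

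At the start peaks the 2 preparations compare as follows. At Sqle the log2 difference was -0.16 ± 0.07 in fresh liver (adjusted p = 0.102) and -0.44 ± 0.08 in frozen liver (adjusted p = 0.00141). At Msmo1 it was -0.13 ± 0.07 and -0.49 ± 0.08 (adjusted p = 0.204 and 0.0011). Fdft1 gave -0.13 ± 0.07 and -0.38 ± 0.08, and Nsdhl gave -0.20 ± 0.10 and -0.62 ± 0.16. Hsd17b7 differed by 0.06 ± 0.08 in fresh and -0.26 ± 0.07 in frozen liver. The Cyp51 start peak, which had the smallest interaction (-0.07), gave -0.18 ± 0.07 and -0.25 ± 0.09. The mean log2 level of the 8 start peaks was 8.33 to 8.46 in fresh fed, 8.28 to 8.37 in fresh fasted, 8.56 to 8.68 in frozen fed and 8.28 to 8.31 in frozen fasted libraries. The frozen fed libraries were the highest of the 4 groups.

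Away from the starts both preparations called decreases. Many of them were at Sc5d, where 10 of all 16 peaks, near and distal, were lower in fresh liver and 9 in frozen liver. In fresh liver 16 of the 34 distal peaks were lower and 3 higher, where 23.0% and 10.5% of all distal peaks were. In frozen liver 13 were lower and 4 higher, where 21.1% and 12.8% were. Over all 46 peaks this made 16 lower and 3 higher in fresh liver (16.1% and 11.4% of all peaks), or 26 and 1 with libraries scaled to peaks near starts, and 23 lower and 4 higher in frozen liver (15.0% and 12.8%). In both preparations 12 peaks were lower, where 12.1% of all peaks were, and 3 were higher in both, where 7.06% were. The 3 are the Lss intron 5 peak and the overlapping Akap9 intron peaks nearest to Cyp51. The 3 higher peaks of fresh liver became 1 without fed mouse A, fed mouse C or fasted mouse A, and the 4 of frozen liver became 2 without fasted mouse A. The 23 lower peaks of frozen liver became 14 without fasted mouse A and 15 without fed mouse A or fed mouse B. The authors' deposited table has 15 lower and 3 higher of the 46 peaks in fresh and 22 and 3 in frozen liver at an adjusted p under 0.05, and it calls 23.1% and 29.5% of all peaks in either direction. Of limma's 19 calls in fresh and 27 in frozen liver, 18 and 25 were also in the authors' deposited table, and 0 had the opposite sign.

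Freezing itself changed these peaks in both directions, as it did many peaks of the whole table. Frozen minus fresh, with feeding state as a term, 9 of the 46 peaks were higher and 17 lower, where 28.7% and 32.8% of all peaks were, and after quantile normalization the split was 11 and 10. Of the 12 peaks near starts 6 were higher and 3 lower (37.6% and 27.7% of all peaks near starts), and of the 34 distal peaks 3 were higher and 14 lower (23.9% and 35.5%). This fit did not pair the 2 libraries of a mouse. With the replicate block, limma called 16895 peaks of the table higher and 19910 lower, against 15093 and 17223 without it. The counts near starts stayed at 6 higher and 3 lower. The largest increase was at the Sc5d start peak, with a log2 difference of 0.74 ± 0.05 (adjusted p = 7.64e-09), followed by the higher Fdft1 intron 2 peak at 0.70 ± 0.06 (adjusted p = 7.87e-08). The Lss and Cyp51 start peaks rose by 0.32 and 0.30, while those of Sqle and Msmo1 fell, at -0.20 and -0.23 (adjusted p = 3.49e-05, 0.000181, 0.00582 and 0.00582). The start peaks of Fdft1 and Hsd17b7 differed by 0.02 and 0.01 with no call, and after quantile normalization by -0.14 and -0.18, both called. The largest decreases were the Klhl2 intron peak upstream of Msmo1, at -1.13, and a peak at the Dhcr7 transcript end, at -0.87.

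The other genes of the pathway that are reported here, listed by role with earlier results of these data known, were also counted in the averaged fit, to be read against the 16.5% higher and 18.1% lower of all peaks, and 19.7% and 4.59% of peaks near starts. Of the 24 peaks of the early genes Acat2, Hmgcs1, Mvk, Pmvk, Mvd, Idi1 and Fdps, 5 were higher and 10 lower, with 4 of the 7 start peaks lower and 0 higher. In fresh liver 3 of the 24 were higher and 3 lower, and in frozen liver 4 and 13. The 4 lower start peaks were those of Idi1, isopentenyl diphosphate isomerase (log2 difference -0.56), Mvd, mevalonate diphosphate decarboxylase (-0.39), Fdps, farnesyl diphosphate synthase (-0.31), and Hmgcs1, the cytosolic HMG-CoA synthase (-0.29). Of 8 peaks at the other late genes Tm7sf2, Lbr and Ebp, 0 were higher and 2 lower, both at Tm7sf2, a sterol reductase, whose start peak differed by -0.49 ± 0.07 (adjusted p = 0.0012). Sterol sensing genes had 8 higher and 26 lower of 64 peaks, 13 of the 26 at Srebf1, whose start peak differed by -0.35 and was called. Their other 5 start peaks were not called in the averaged fit, at -0.11 for Srebf2, 0.05 for Scap, -0.05 for Insig1, 0.02 for Insig2 and 0.10 for Mbtps1, though the Insig1 start peak was lower in frozen liver, at -0.23 (adjusted p = 0.0262, limma). The sterol carrier Stard4 had 2 lower and 0 higher of 4 peaks, and its start peak differed by -0.20, which was called. Mbtps2 and Npc1l1 had no peak in the table.

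Of all other genes, those whose start peak most resembled the mean of the 8 start peaks over the 12 libraries were Stard4 (Pearson r = 0.930), Pdp2 (0.918), Hmgcs1 (0.909), Thrsp (0.907) and Colec12 (0.906). The correlation is a description over 12 libraries from 6 mice that share preparation and feeding state, among start peaks above the median level. Their log2 differences in fasting were -0.20, -0.17, -0.29, -1.03 and -0.32. These genes were picked by likeness to a mean that was itself lower in fasting, so the shared sign follows largely from the choice.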

How the data were processed

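Each transposition used about 25000 nuclei on beads and ran for 30 min at 37 °C, and 12 cycles of PCR followed, per the labels' protocols. In the submitters' processing notes the mouse build mm10 and the tools HOMER, DESeq2, SAMtools and BWA 0.7.5a-r405 are named without their roles. How duplicates, the transposase offset and peak calling were handled is not given in the sources used here. The authors deposited signal values, that is reads per 200 bp peak divided by 1 size factor per library. Their own fasting comparison, deposited as log2 fold changes with adjusted p-values for each preparation, is named as such wherever it is used. In all 12 columns 100% of the values were whole multiples of 1 step (within 1e-06 reads), and this step gave the depths and the whole reads used in edgeR. In 8 columns the smallest value above 0 was more than 1 step, so depths there take the step as 1 read.

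The table's columns carry the letters A to C, which match no mouse number in the labels. Libraries of the same letter and feeding state deviated together (r from 0.329 to 0.640 for the 6 pairs, highest other r = 0.0213, limit 0.1) and were averaged as 1 mouse, so the pairing comes from the data. Values were fitted as log2(value + 1), with no filter, in R 4.3.3 with limma 3.58.1, using a trended prior, two-sided tests and Benjamini-Hochberg adjustment over all 52530 peaks, with a threshold of 0.05. Fasting was fitted on the averages and within each preparation, and the interaction and freezing on all 12 libraries. Alternatives were pseudocounts of 0.5 and 5, leaving out the lowest 25% of peaks, 2 other scalings, each mouse left out, the replicate block, and edgeR 4.0.16 (quasi-likelihood, TMM). The fits were also run on simulated libraries, drawn without an effect shared by the 2 libraries of a mouse. No result here rests on that run. Each gene is described by all its peaks, and in values mainly by the peak nearest to its start, if within 1 kb, and its peak of lowest p. All other peaks given in values were singled out after their values were seen. The members, lists and tests were chosen with earlier results of these data known. Promoters came from RefSeq (GRCm38.p6). No genome was used. Some genes of the pathway lists are not reported here.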

Additional observations from a re-analysis of the deposited data

How the results depend on the processing

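Pseudocounts of 0.5 and 5 and edgeR moved none of the counts of lower or higher peaks by more than 1.5 times. Leaving out the lowest 25% of peaks removed 17 of the 46 peaks, 8 of them lower and 3 higher in the averaged fit, and left 15 lower and 1 higher. Of the 29 peaks left, the same filter gave 8 lower and 0 higher in fresh liver, 1 higher in frozen liver, and 7 lower after freezing. Over all peaks kept, limma then called 4471 lower and 4200 higher in fresh liver, 5187 higher in frozen liver and 10716 lower after freezing. Scaling to peaks near starts gave 26 lower, 1 higher and 6 lower near starts in fresh liver. Quantile normalization gave 4 lower near starts in fresh liver and 10 lower after freezing, and turned the freezing difference of the Fdft1 and Hsd17b7 start peaks to -0.1433 and -0.1772. Neither of these was called before quantile normalization, and both were called after it. The cause of these shifts between scalings was not tested. With 1 mouse left out, averaged counts ranged from 15 to 25 lower and, near starts, from 3 to 6 lower. In fresh liver 1 to 3 were then higher. In frozen liver 14 to 22 were lower, 2 to 4 higher and 4 to 8 lower near starts. With 1 sample left out of 3, fewer samples enter the fit. The replicate block raised the interaction calls among the 46 peaks from 0 to 2, and over all peaks from 0 to 395. For averaged fasting, the 12 libraries with the mouse as replicate block gave 27 lower and 4 higher, and without a block 29 and 5. The shallowest library had a median of 51 reads per peak, and which differences at low peaks this depth could show was not tested.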
